A study of Mus musculus with 20 samples.

Results

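The Sox genes encode transcription factors that bind DNA through a shared HMG box, and 10 of them were followed here across cell types of the mouse dentate gyrus, across 3 ages, and after knockdown of the histone methyltransferase Setd8 in cultured neural stem cells (NSCs). The members were Sox1 and Sox2 (group B1), Sox21 (B2), Sox5 and Sox6 (D), Sox8, Sox9 and Sox10 (E), and Sox4 and Sox11 (C). They were found by gene symbol, and each matched 1 of the 27998 genes of the single-cell RNA tables and 1 of the 24062 genes of the bulk RNA table. The rule that names them uses symbols and no measured value, though the list was drawn up with earlier results of these data known.

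Group B1 factors keep neural stem and progenitor cells in an undifferentiated state, and Sox21 counteracts them. Group C factors act in cells committed to the neuronal lineage, where they turn on neuronal genes. Sox9 drives the onset of gliogenesis and maintains astroglia, Sox10 specifies oligodendrocyte precursors and switches on myelin genes, and Sox8 overlaps with both in the glial lineages. The D factors lack a transactivation domain of their own and work with partner proteins, among them the E group.

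The single-cell libraries came from Nestin-EGFP mice on the C57BL/6 background, in which the Nestin promoter drives EGFP. EGFP+ cells of the dentate gyrus were sorted at postnatal day 5 (P5), 12 weeks (12W) and 24 weeks (24W), and each age gave 1 library for RNA (scRNA-seq) and 1 for open chromatin (scATAC-seq). The bulk RNA came from cultured mouse NSCs, described as embryonic cortical cells in the methods and as hippocampal in the labels, which carried a lentiviral short hairpin RNA against Setd8 or a scrambled control and were collected 3 days after infection according to the labels, where the study's table of single libraries names an earlier day. With 1 library per age, no test between ages was possible: ratios are given with exact 95% intervals, which cover counting error only.

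After filtering, the P5, 12W and 24W RNA libraries held 12752, 5271 and 2794 cells at medians of 4261, 2271 and 2178 unique molecular identifiers (UMIs) per cell. The libraries shared 26 to 86 cell barcodes in pairs. Cells were clustered without the Sox genes and the clusters were named from marker genes, so that a name such as NSC-like means that the markers of that class led the cluster. At P5, NSC-like cells held 239.7 CPM (UMIs of a gene per 1000000 UMIs of the class and age) of Hopx, a stem cell gene, against 109.5 in astrocyte-like (AS-like) cells. Neural progenitor-like (NPC-like, cycling) cells held 400.3 of Top2a, immature neuron-like cells of the earlier class (IMN1-like) 241 of Eomes, and those of the later class (IMN2-like) 908 of Stmn2. Pericyte-like (PC-like) cells held 1212 of the pericyte gene Kcnj8, and they served as a class outside the neural lineage. NSC-like cells numbered 1160, 321 and 94 at the 3 ages, and NPC-like cells 1203, 239 and 44.

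The sequences around the starts of Sox2, Sox4, Sox11 and Sox8 are shown first, because the results by class, age, promoter and knockdown turn on these genes. Each line holds 300 bases of the RefSeq mouse genome (GRCm38.p6, the build called mm10 in the study), from 250 bases before the transcription start to 50 after it, written 5′ to 3′ on the strand of the gene. Capitals mark a CCAAT box (CCAAT, or ATTGG on the other strand) or the E-box CAGCTG, which reads the same on both strands. The windows lie at chr3:34649745-34650044 (+ strand) for Sox2, chr13:28953650-28953949 (− strand) for Sox4, chr12:27342669-27342968 (− strand) for Sox11 and chr17:25570637-25570936 (− strand) for Sox8.
Sox2: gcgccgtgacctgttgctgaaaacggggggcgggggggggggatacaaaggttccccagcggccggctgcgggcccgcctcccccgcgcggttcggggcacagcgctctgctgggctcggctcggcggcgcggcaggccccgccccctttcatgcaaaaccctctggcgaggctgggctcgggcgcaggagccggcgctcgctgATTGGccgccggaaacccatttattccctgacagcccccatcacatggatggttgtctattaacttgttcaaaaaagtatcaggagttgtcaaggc
Sox4: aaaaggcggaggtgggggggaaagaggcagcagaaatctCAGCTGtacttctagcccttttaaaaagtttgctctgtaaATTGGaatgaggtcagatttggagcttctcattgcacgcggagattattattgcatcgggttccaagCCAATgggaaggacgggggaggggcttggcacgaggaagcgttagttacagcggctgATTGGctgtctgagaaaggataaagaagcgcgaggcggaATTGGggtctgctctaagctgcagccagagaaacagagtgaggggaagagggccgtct
Sox11: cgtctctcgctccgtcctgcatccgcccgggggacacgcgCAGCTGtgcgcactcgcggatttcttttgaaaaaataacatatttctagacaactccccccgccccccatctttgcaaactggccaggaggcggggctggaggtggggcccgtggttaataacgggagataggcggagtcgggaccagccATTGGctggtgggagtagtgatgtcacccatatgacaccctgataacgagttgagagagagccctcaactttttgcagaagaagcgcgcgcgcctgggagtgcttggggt
Sox8: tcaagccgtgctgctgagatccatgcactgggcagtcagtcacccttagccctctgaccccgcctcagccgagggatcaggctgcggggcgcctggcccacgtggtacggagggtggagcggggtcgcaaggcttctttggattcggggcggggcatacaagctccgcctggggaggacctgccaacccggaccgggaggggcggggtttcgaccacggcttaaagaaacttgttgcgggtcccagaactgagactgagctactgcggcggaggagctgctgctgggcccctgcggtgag

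The Sox4 window held 4 CCAAT boxes and 1 CAGCTG, the Sox11 window 1 of each, the Sox2 window 1 CCAAT box and the Sox8 window neither. A CCAAT box was present in 37.4% and a CAGCTG in 16.3% of the 32851 RefSeq windows of this length. The Sox-type site CATTGT, searched also as ACAATG on the other strand, occurred in 12.6% of all windows and in none of these 4. A match is a string of letters, not a bound site, and an absent match says nothing about binding. The windows were rich in CpG, with 27 CpG dinucleotides in Sox2, 21 in Sox11, 21 in Sox8 and 12 in Sox4, against a median of 7 over all windows. In all 3 scATAC-seq libraries a called peak covered each of the 4 windows.

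Sox2 was highest in NSC-like cells at P5, at 594 CPM (95% interval 573 to 616), and AS-like cells followed at 464 (454 to 475). Among the named classes, oligodendrocyte-like (OL-like, 410), ependymal-like (401) and NPC-like cells (361) came next. A pair of unnamed clusters lay between the ependymal-like and NPC-like values, at 398.5 and 367, and the intervals of neighbours in this stretch met. Oligodendrocyte precursor-like (OPC-like) cells held 281, IMN1-like cells 140.5 and IMN2-like cells 88.2. The gene was therefore present at P5 in stem, astroglial and oligodendroglial classes alike, and lower in the neuronal classes. The lead of NSC-like over AS-like cells was uneven within the classes. Of the 2 NSC-like clusters, cluster 14 held 705 CPM and cluster 7 held 522. AS-like clusters 0 and 10 held 501 and 366, so NSC-like cluster 7 lay near AS-like cluster 0. PC-like cells held 50.8 CPM, which marks how much was counted in a class outside the neural lineage at this age. No test was made between classes here or for the other members, since the classes were cut from the same cells.

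Sox1, the other B1 member, had a narrower range. Its level at P5 was 75.5 CPM in NSC-like, 74.1 in ependymal-like and 66.2 in NPC-like cells, with intervals that met, and 34.8 in AS-like cells. OPC-like cells were at 12.9 and PC-like cells at 9.38, so that Sox1, unlike Sox2, did not stand clear of the PC-like level in oligodendroglial cells (its OPC-like interval was 10.2 to 16.1 and its PC-like interval 4.85 to 16.4). Sox21 was highest in AS-like (79.9) and NSC-like cells (68.7), whose intervals met, and was near the PC-like level of 7.81 in IMN1-like (12.4) and IMN2-like cells (11.8).

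Of the E group, Sox9 was highest in ependymal-like cells at 529 CPM (491 to 568), followed by NSC-like cells at 389 (372 to 407) and AS-like cells at 295 (287 to 303), with no overlap between these 3 intervals. OPC-like and cycling OPC-like cells held 182 and 162, above the NPC-like 149, while OL-like cells held 34.3, close to the PC-like 28.9. Sox10 was counted chiefly in 3 classes: OL-like at 420, OPC-like at 277 and cycling OPC-like at 269. Every other class with at least 50 cells at P5 held 14.5 to 38.5, a span that includes the PC-like 21.1. Sox8 had its highest levels in the same 3 classes, at 357.5, 260.3 and 312.5 CPM, yet stayed at 85.4 in AS-like, 77.1 in NSC-like and 68.5 in NPC-like cells against 26.1 in ependymal-like and 10.2 in PC-like cells. At P5 Sox9 thus led in other classes than Sox8 and Sox10. It was highest in ependymal-like and astroglial classes and was also counted in OPC-like cells, Sox10 kept to the oligodendrocyte lineage, and Sox8 led there and was lower but present in AS-like and NSC-like cells.

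Of the D genes, Sox6 reached 203 CPM in OL-like, 163 in OPC-like and 149 in cycling OPC-like cells, and 98.8 and 91.8 in ependymal-like and NSC-like cells, against 10.3 in IMN2-like and 14.8 in PC-like cells. Sox5 spanned 14.6 to 61.9 over the 17 classes ranked, with the intervals of all neighbours in its order meeting. No class thus stood apart from its neighbours for Sox5, though the ends of the order did differ. OPC-like cells (55.8 to 68.4) lay clear of PC-like (16.5 to 34.4) and IMN2-like cells (16.5 to 28.2).

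Sox4 and Sox11 had their highest levels in the neuronal classes. Sox4 was at 2633 CPM in IMN1-like (2577 to 2689), 2494 in IMN2-like (2434 to 2555) and 1130 in NPC-like cells (1108 to 1151), against 371 and 295 in NSC-like and AS-like cells. OL-like cells also held 802 of Sox4 (747 to 859.5), OPC-like cells 479.7 and an unnamed cluster 782.5, all above the NSC-like level. Sox11 was at 2281 in IMN2-like and 2244 in IMN1-like cells, with intervals that met, and at 734, 166 and 160 in the NPC-like, NSC-like and AS-like classes, with 235 in OPC-like cells. As a fold, though not in CPM, the step from NSC-like to IMN1-like cells was thus larger for Sox11 than for Sox4 in these pooled values. PC-like cells held 328 of Sox4 and 87.5 of Sox11, so the NSC-like level of Sox4 was near that of PC-like cells, with intervals that met (354 to 389 against 297.5 to 361).

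**Figure D1:**
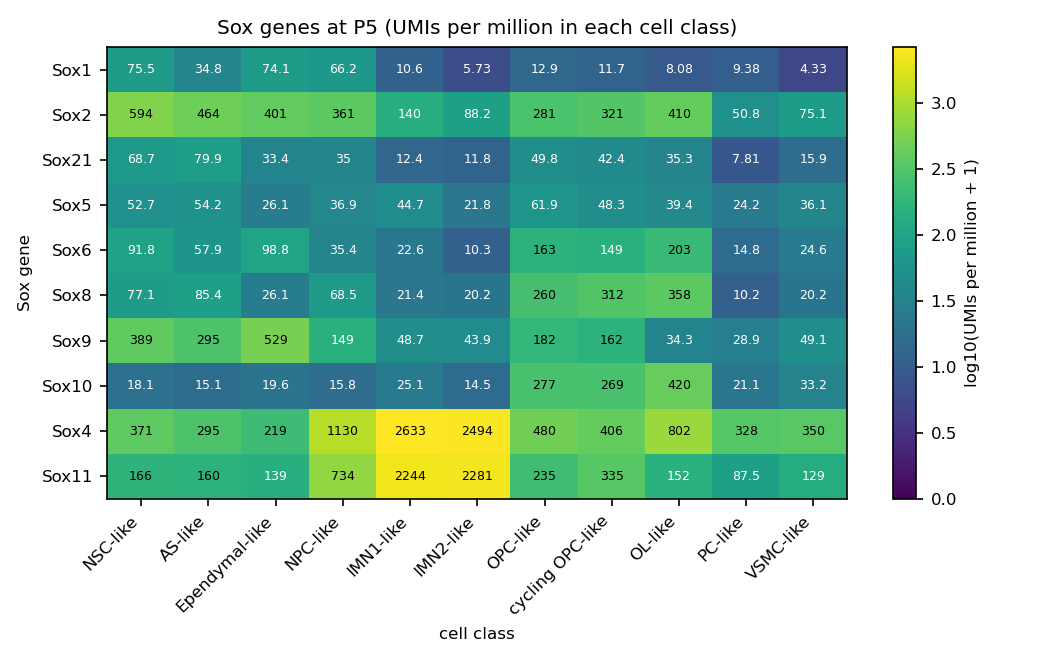
Pooled level of each Sox gene in each cell class at P5 (number in each square, CPM; colour, log10 of CPM + 1), with genes in rows and classes in columns. Sox4 and Sox11 are brightest in the IMN1-like and IMN2-like columns, Sox10 in the 3 oligodendroglial columns, Sox9 in the ependymal, stem and astroglial columns, and Sox2 in the stem and astroglial columns, followed by the oligodendrocyte and ependymal ones; colours of different genes should not be compared as levels.

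Cells were also thinned to 1000 UMIs each, so that classes and ages of different depth could be compared by the share of cells with at least 1 UMI. At P5 the share for Sox4 was 92.3% of IMN1-like, 54.3% of NPC-like and 29.7% of NSC-like cells (unthinned 99.8%, 91.6% and 71.6%), against 33.8% of PC-like cells (unthinned 73.3%). For Sox2 the thinned share was 45.2% of NSC-like cells (unthinned 84.8%, median 4033 UMIs) and 3.38% of PC-like cells (unthinned 21.4%, median 4622 UMIs). The Sox4 share in NSC-like cells was thus at the level found in PC-like cells, while that of Sox2 was well above it.

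Across the 34 groups of a class at an age with at least 50 cells, the gene most like Sox4 among 12513 was Sox11 (Pearson r = 0.968 of log2 levels), and the reverse also held. Rnf165 (0.967) and the neuronal microtubule gene Dcx (0.965) came next for Sox11. Sox10 was most like Gpr17 (0.967), which marks committed oligodendrocyte precursors, Sox9 like Mt3 and Ntrk2 (0.941 each), Sox21 like Ptprz1 (0.953), Sox2 like Psat1 (0.925) and Sox1 like Id4 (0.88). Sox8 was most like Slc35f1 (0.887), Sox6 like Ncam2 (0.845), and Sox5 like Smarcd3 (0.74), the lowest of the best matches. These groups share 3 libraries and their depth, so the correlations are descriptions.

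The comparison across ages asked which members differed from P5 in the same class. A gene was said to fall or rise when its pooled level was at least 2-fold lower or higher than at P5 at both 12W and 24W, a rule of size that stands in for a test. In NSC-like cells 3 of the 10 members fell, Sox4, Sox11 and Sox10, and none rose. Of the 11407 genes compared in these cells, 5.86% fell and 6.3% rose. In AS-like cells the same 3 members fell and none rose (background 9.44% and 6.88%). In NPC-like cells only Sox10 fell (5.63% and 4.37%), in IMN1-like cells Sox10 and Sox21 fell (3.65% and 4.5%), and in IMN2-like cells Sox10, Sox21, Sox8 and Sox9 fell (2.83% and 5.91%). With cells thinned to 1000 UMIs, none of the IMN1-like calls and only that of Sox9 in IMN2-like cells passed, and the IMN2-like Sox8 ratio of 24W to P5 became 1.29. A fall needs 20 UMIs at P5. After thinning, Sox10 was left in 11 IMN1-like and 9 IMN2-like cells there, and Sox21 in 6 and 7. Thinning can thus end these calls through the minimum alone, whatever the ratio. The Sox8 ratio rests on at most 2 UMIs at 24W. The median ratio to P5 over all genes compared lay between 1.04 and 1.14 in these classes, and the median over the 10 members for NSC-like cells was 0.658 and 0.822 at the adult ages.

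Sox4 in NSC-like cells went from 371 CPM at P5 to 145 at 12W and 113 at 24W, ratios of 0.391 (0.332 to 0.457) and 0.303 (0.213 to 0.420). Sox11 went from 166 to 63.3 and 12.2, ratios of 0.382 (0.297 to 0.484) and 0.0735 (0.02 to 0.189), the last on 4 UMIs. Both C genes were thus lower in adult NSC-like cells. In AS-like cells the ratios at 12W and 24W were 0.355 and 0.257 for Sox4 and 0.291 and 0.132 for Sox11. Of the 2 AS-like clusters, cluster 10 held 738 of 3225, 22 of 333 and 7 of 111 cells at the 3 ages, and within cluster 0 alone the ratios were 0.343 and 0.236 for Sox4 and 0.288 and 0.123 for Sox11.

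In the neurogenic progeny the C genes were not lower with age. Sox4 in NPC-like cells was at 1130, 1607 and 1553 CPM at P5, 12W and 24W, and Sox11 at 734, 1121 and 755. In IMN1-like cells Sox4 was at 2633, 3358 and 3215 and Sox11 at 2244, 2931 and 2626. All of these ratios lay between 1.03 and 1.53, under the 2-fold of the rule. In IMN2-like cells the ratios were 1.04 and 1.03 for Sox4 and 1.2 and 1.09 for Sox11. Of the UMIs of the 10 members, Sox4 and Sox11 together made up 28.2%, 15.3% and 9.13% in NSC-like cells at the 3 ages, and 93.7% and 95.9% in IMN1-like cells at P5 and 12W.

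PC-like cells, outside the neural lineage, moved with age in the same direction as NSC-like cells for the C genes, though the clusters that make up both classes changed their shares. Of the 2 PC-like clusters, cluster 2 held 231 of 266 cells at P5 and cluster 1 held 1248 of 2201 at 12W and 972 of 1617 at 24W. Of the 2 NSC-like clusters, cluster 14 held 479 of 1160, 43 of 321 and 8 of 94 cells at the 3 ages. Within NSC-like cluster 7 alone the ratios were 0.361 and 0.303 for Sox4 and 0.341 and 0.0725 for Sox11. Within PC-like cluster 2 alone they were 0.370 and 0.231 for Sox4 and 0.344 and 0.163 for Sox11, with both genes past 2-fold at both ages in these 2 clusters. In NSC-like cluster 14 the Sox4 ratio at 12W was 0.493 (0.307 to 0.753) and that of Sox11 0.565 (0.279 to 1.03), with 0 UMIs of either gene in its 8 cells at 24W. In PC-like cluster 1 the ratios were 0.286 and 0.219 for Sox4 and 0.546 (0.298 to 1.09) and 0.227 for Sox11, so Sox11 missed 2-fold at 12W in both of these clusters. Sox4 in PC-like cells went from 328 to 116 and 80.7 CPM (ratios 0.353 and 0.246), and Sox11 from 87.5 to 38.5 and 17.1 (0.440 and 0.196). After the PC-like level of the same age was subtracted, the NSC-like Sox4 ratios were 0.676 and 0.741 and Sox4 no longer passed the rule, whereas Sox11 was at 0.317 at 12W. At 24W its NSC-like level (12.2 CPM) lay below the PC-like level (17.1), so its value there is 0 by construction and its pass rests on the 12W ratio. With the level of PC-like cluster 2 subtracted instead, also chosen after seeing the data, the ratios were 0.522 and 0.751 for Sox4, and 0.424 at 12W for Sox11, whose 24W value was again set to 0. In AS-like cells Sox11 still passed, and Sox4 was lower there than in PC-like cells at all 3 ages, which leaves no value for it. The subtraction takes all PC-like counts as background. Whether PC-like cells express Sox4 or Sox11 themselves was not tested, so the subtraction cannot decide what part of the NSC-like counts is background. Marker genes of immature neurons in NSC-like cells moved with the C genes: the summed level of the 7 IMN1 markers was 307, 229 and 97.5 CPM at the 3 ages, with UMIs for 7, 7 and 5 of them, and in PC-like cells it was 205.5, 185 and 77.1. The 7 pericyte markers moved the other way in NSC-like cells, from 258 to 1353 and 2741 in sum. The part of RNA from other cells in the Sox ratios was not tested beyond these values.

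The RNA free in the cell suspension could be read at 12W and 24W from barcodes of 10 to 100 UMIs, but not at P5, where no barcode held fewer than 1495. From pericyte and endothelial markers, at most 8.82% of the UMIs of NSC-like cells at 12W and 12.0% at 24W were free RNA. That amount would carry 48.1 of the 75 Sox11 UMIs and 42.8 of the 172 Sox4 UMIs at 12W, and at 24W 9.63 Sox11 UMIs where 4 were counted and 11.1 of the 37 Sox4 UMIs. These upper limits come to more than the Sox11 UMIs counted at 24W, and to fewer than the Sox4 UMIs at both ages. The part of free RNA at P5 was not tested.

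**Figure D2:**
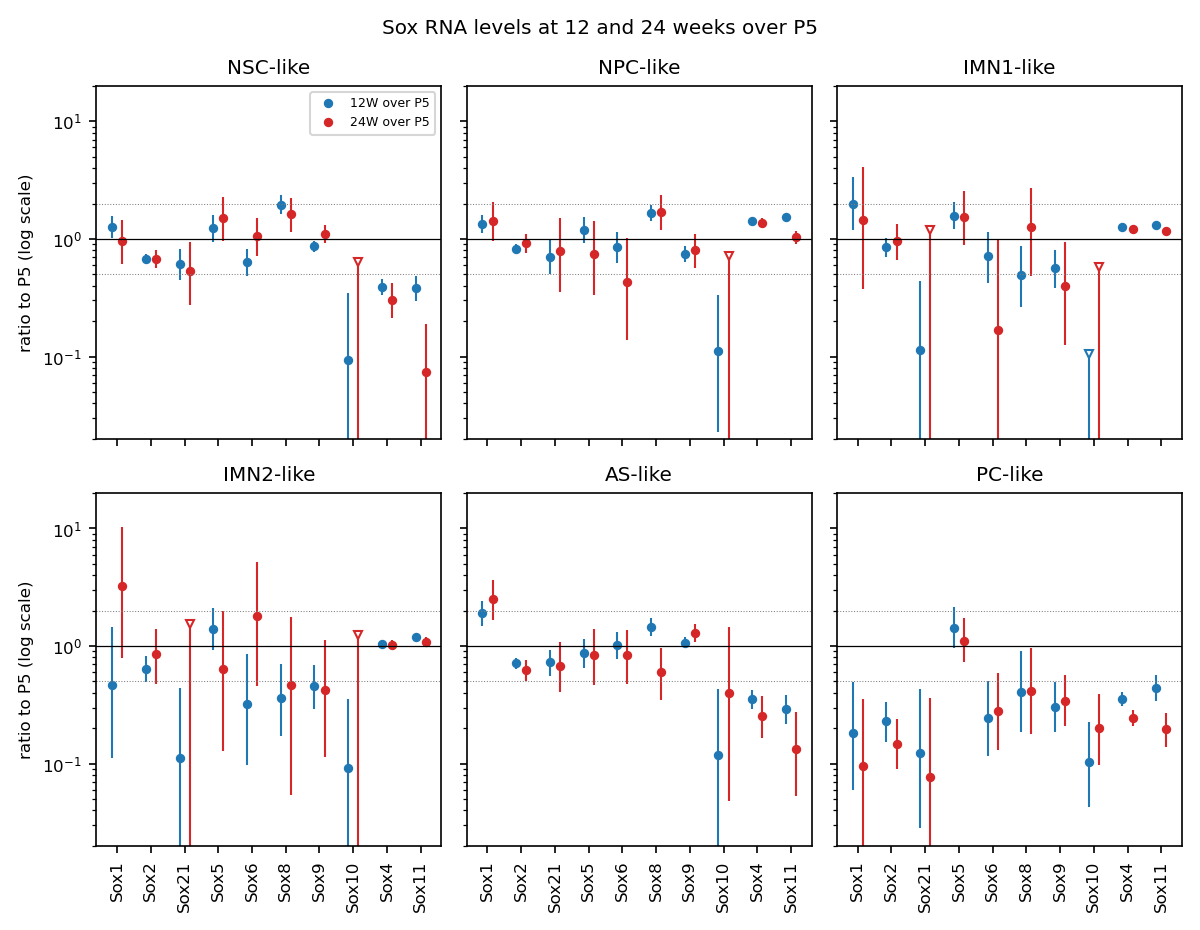
Ratio of the pooled level at 12W (blue) and 24W (red) to P5 for each Sox gene in 6 cell classes, on a log axis; bars are exact 95% intervals of counting error, dotted lines mark 2-fold, and open triangles show the upper limit where no UMI was counted. Sox4 and Sox11 lie below the lower line in NSC-like, AS-like and PC-like cells and above 1 in NPC-like and IMN1-like cells; a bar or point off the lower edge is cut at 0.02.

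Sox2, by contrast, lay at 594, 405 and 402 CPM in NSC-like cells, ratios of 0.681 (0.618 to 0.751) and 0.676 (0.564 to 0.806). Sox2 was lower at both adult ages without reaching 2-fold in the class as a whole. Within NSC-like cluster 7 alone the ratios were 0.769 (0.689 to 0.857) and 0.782 (0.647 to 0.939). In cluster 14, a smaller share of the class at the adult ages, they were 0.618 (0.467 to 0.804) and 0.436 (0.160 to 0.952), the last on 6 UMIs. Cluster 14 held 705 CPM of Sox2 at P5 and cluster 7 held 522. What part of the class ratios comes from this mix was not tested. In PC-like cells Sox2 was at 50.8, 11.6 and 7.50, and with this level subtracted the NSC-like ratios were 0.724 and 0.726. In NPC-like cells the Sox2 ratios were 0.823 and 0.920, and in AS-like cells 0.717 and 0.626.

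Sox8 was the member that came nearest to rising in NSC-like cells, at 77.1, 151 and 125 CPM (1.96, interval 1.63 to 2.35, and 1.62, interval 1.14 to 2.24). Its NPC-like ratios were 1.67 and 1.69. Sox9 in NSC-like cells was at 389, 337 and 429, with ratios of 0.865 and 1.10. Sox1 in AS-like cells was at 34.8, 66.2 and 87.8, ratios of 1.90 and 2.53, and it passed the rule as a rise once the PC-like level or free RNA was subtracted.

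The falls of Sox10, Sox21, Sox8 and Sox9 outside the glial classes rested on low levels. Sox10 in NSC-like cells went from 88 UMIs at P5 (18.1 CPM) to 2 at 12W and 0 at 24W, and in PC-like cells from 21.1 CPM to 2.18 and 4.20. The summed level of 7 OPC markers in NSC-like cells was 537, 66.7 and 64.0 CPM. At 24W the Sox10 count was also 0 in NPC-like, IMN1-like and IMN2-like cells, and 0 of 94 thinned NSC-like cells held a UMI, which allows a share of up to 3.19% of cells with a UMI at this thinned depth and sets no limit on cells that express the gene. Sox21 in IMN1-like and IMN2-like cells was at 12.4 and 11.8 CPM at P5 with 2 UMIs each at 12W. Sox8 and Sox9 in IMN2-like cells, at 20.2 and 43.9 CPM at P5, no longer passed once the PC-like levels (10.2 and 28.9) were subtracted. At P5 the intervals of these members in these classes met the PC-like intervals, which is not a test of the difference.

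Genes tied to each Sox group were followed in the same way. In NSC-like cells the background of the rule was, as above, 5.86% of all genes for a fall and 6.3% for a rise. Of the 8 genes tied to the C group, most of them neuronal, 7 could be compared there and 3 fell: Tubb3, a neuronal tubulin (76.1, 37.1 and 24.4 CPM), Dcx (19.8, 5.91 and 6.09) and Neurod1, a neurogenic factor (38.1, 14.4 and 9.14). None of the 7 fell or rose in NPC-like, IMN1-like or IMN2-like cells, and in AS-like cells 2 fell, Tubb3 and Dcx (background 9.44%). In PC-like cells, a class that should lack it, Neurod1 was at 30.5, 19.9 and 8.70. Of 9 glial and oligodendroglial genes tied to the E group and compared in NSC-like cells, 4 fell, among them Olig1 (295, 16.0 and 0) and Olig2 (87.2, 4.22 and 3.05), both lineage factors of oligodendrocytes, and the myelin gene Mbp rose (24.9, 62.4 and 82.2). Mbp was at 28.9, 55.0 and 62.7 in PC-like cells. Of 12 progenitor genes tied to the B1 group, 2 fell in NSC-like cells, the fatty acid binding protein gene Fabp7 (11660, 3199 and 2175) and the cyclin gene Ccnd1 (90.1, 26.2 and 18.3). Olig1, Olig2 and Fabp7 also fell in NPC-like, IMN1-like, IMN2-like and AS-like cells, so their falls were not particular to NSC-like cells. In IMN1-like cells Olig1 was at 254, 7.73 and 0 and Fabp7 at 1434, 157 and 123. Of 9 further Sox genes, 4 could be compared in NSC-like cells and 1 fell, Sox7 (14.2, 1.69 and 3.05), with 1 UMI at 24W.

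The scATAC-seq libraries held 8788, 12638 and 6041 cells, of which 63.7%, 91.3% and 97.5% received a class from the RNA of the same age with a score of at least 0.5. Promoter accessibility is given as the counts in peaks that overlap 2 kb before to 500 bases after a start, as CPM of all counts in peaks. Intervals rest on fragments, since about 90% of the deposited values were even. The median ratio to P5 over all promoters was 0.891 and 0.927 in NSC-like cells, and 0.711 and 0.714 in PC-like cells. Peaks had been called in each library by itself, so their widths differ.

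At P5 the Sox10 promoter differed most between classes as a fold, though not in CPM, at 120.2 CPM in OL-like and 94.4 in OPC-like cells against 7.10 in NSC-like and 10.3 in PC-like cells. Its RNA too was highest in the OL-like and OPC-like classes. Sox11 was accessible at P5 in classes with little of its RNA too: 101 in IMN1-like, 111 in IMN2-like, 92.7 in OPC-like, 78.3 in NSC-like and 81.6 in PC-like cells. Sox4 was at 107 in PC-like, 86.4 in NSC-like and 61.7 in IMN1-like cells, so its promoter signal did not follow its RNA across classes. Sox8 held 191 and 207 in the NSC-like and AS-like classes and 108 in OPC-like cells, whereas its RNA was higher in OPC-like cells than in the other two.

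With age, promoter counts depended on the width of the called peak, which is the same for all classes of a library but differs between libraries. In NSC-like cells Sox11 went from 78.3 at P5 to 51.7 at 12W and 41.4 at 24W, ratios of 0.660 (0.565 to 0.770) and 0.529 (0.422 to 0.658). In AS-like cells its ratios were 0.668 and 0.361, in NPC-like cells 0.918 and 0.821, and in IMN1-like cells 0.808 and 0.859. Sox4 in NSC-like cells was at 86.4, 92.4 and 101, ratios of 1.07 (0.942 to 1.21) and 1.17 (1.0 to 1.37). The Sox11 peak spanned 4310, 4014 and 3264 bases at the 3 ages and the Sox4 peak 5054, 8043 and 7904. Per covered base, a measure added after seeing the data, the NSC-like ratios were 0.709 and 0.699 for Sox11 and 0.672 and 0.75 for Sox4, so whether the 2 promoters differed with age cannot be told apart from the width called. By the same measure the Sox11 ratios were 0.985 and 1.08 in NPC-like and 0.867 and 1.13 in IMN1-like cells. In PC-like cells Sox11 went from 81.6 to 5.55 and 4.24, on 161 cells at P5.

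Sox2 promoter counts in NSC-like cells were at 74.7, 103 and 107 (ratios 1.38 and 1.43, and per covered base 0.942 and 1.53), while its RNA was lower at both adult ages. Sox1 was at 163, 203 and 239 (1.25 and 1.47), Sox8 at 191, 202 and 229.9 (1.06 and 1.2) and Sox9 at 127, 121 and 119 (0.951 and 0.933, and per covered base 0.966 and 1.89). By counts not scaled to peak width, only Sox10 and Sox11 of the 10 members in NSC-like cells had whole intervals of the ratio below the median over all promoters at both ages. For Sox10 the peaks in the window covered 5881, 1899 and 364 bases at the 3 ages, so that its counts of 7.10, 0.827 and 0 CPM cannot be told apart from the width called. The Sox11 peak narrowed too, and per covered base Sox4 (0.672 and 0.75) lay near Sox11 (0.709 and 0.699). Singling out Sox11 thus depends on the width called. Counts over the whole gene and 2 kb before it gave Sox11 ratios of 0.631 and 0.510 in NSC-like cells. By that measure Sox2 was at 248, 313 and 107, because a second peak beside the gene was called at P5 and 12W but not at 24W. For Sox1, Sox8, Sox9 and Sox21 both windows held the same single peak.

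**Figure D3:**
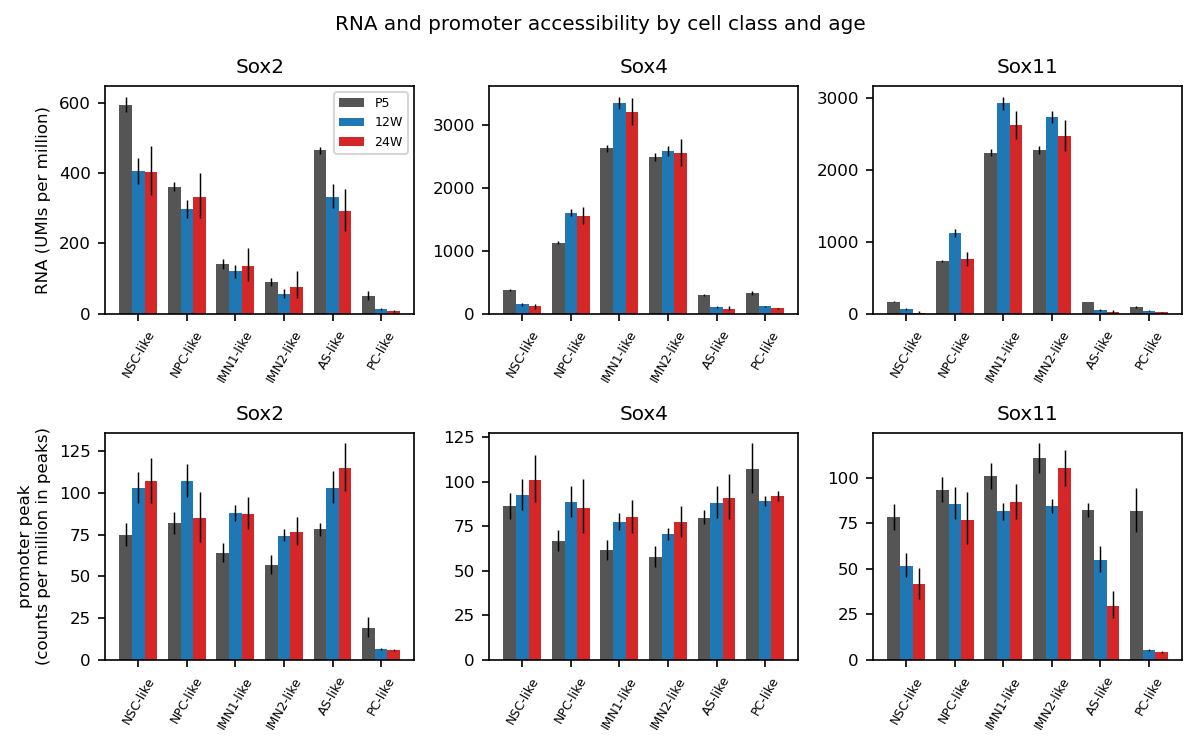
RNA level (upper row, CPM) and promoter accessibility (lower row, CPM of all counts in peaks) of Sox2, Sox4 and Sox11 in 6 cell classes at P5 (grey), 12W (blue) and 24W (red); lines are exact 95% intervals of counting error. Both the RNA and the promoter counts of Sox11 are lower in NSC-like and AS-like cells at 12W and 24W, while Sox4 RNA is lower and its promoter counts, over a wider called peak, are not.

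The bulk comparison asked which members change when Setd8, the enzyme that monomethylates histone H4 at lysine 20, is knocked down. Setd8 itself was at 154, 143 and 143 TPM (transcripts per 1000000) in the libraries labelled Ctrl_3, Setd8KD_1 and Setd8KD_2 and at 36.4 in the library labelled Setd8KD_3. The first 2 libraries labelled as knockdown thus held the level of the control, and the entries of Ctrl_1 and Ctrl_2 held gene symbols and gene lengths in place of values. The values of these 2 libraries equal those of control columns in the study's table of single libraries in 170 of 170 genes. They were used as controls against their labels, which gives 3 controls and 1 knockdown, and every direction below rests on that grouping. The log2 fold change of Setd8 was −1.98 (SE 0.08, adjusted p = 0.00656 in limma). The fit takes the spread of the lone knockdown library to be that of the controls, and nothing in the sources says that the controls were separate cultures.

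TPM is scaled to gene length, so levels can be compared between members. In the controls Sox2 was the highest of the 10 at 239.7 ± 12.9 TPM (SD, n = 3), followed by Sox4 at 158 ± 2.88, Sox8 at 95.9 ± 4.15 and Sox21 at 83.4 ± 3.99. Sox9 (51.0 ± 5.54) and Sox11 (41.8 ± 4.74) overlapped in their single values, and Sox1 was at 33.6 ± 1.68. Sox5 (12.3 ± 0.226) and Sox6 (10.0 ± 0.361) were the lowest of those clearly measured. Sox10 was at most 0.0839 TPM, on 2, 2, 1 and 0 reads in the 4 libraries, and was not tested. The cultures thus held B1, B2, C, E and, at lower levels, D members together, without the oligodendrocyte-lineage Sox10.

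Of the 9 members tested, 3 rose and 2 fell. Over the 13233 genes tested 16.1% rose and 16.3% fell, and 4 members lay above and 4 below all 3 controls, against 41.3% and 40.1% of all genes. The shares among the members thus sit beside a high background. With 1 knockdown library, an effect of the knockdown and a difference of that library from the controls cannot be told apart.

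Sox21 was at 87.7, 82.7 and 79.8 TPM in the controls and 121 in the knockdown library, a log2 fold change of 0.53 (SE 0.08, adjusted p = 0.0183 in limma). Sox1 was at 35.3, 32.0 and 33.5 against 47.6, a change of 0.49 (SE 0.08, adjusted p = 0.0213). Sox4 was at 156, 161 and 156 against 196, a change of 0.31 (SE 0.07, adjusted p = 0.0350). These 3 genes, a B1, a B2 and a C member, were higher in the knockdown library than in every control.

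Sox8 was at 95.3, 100.4 and 92.2 TPM in the controls and 57.4 in the knockdown library, and it fell by 0.73 on the log2 scale (SE 0.08, adjusted p = 0.0102). Sox6 was at 10.3, 10.1 and 9.63 against 7.52 and fell by 0.37 (SE 0.07, adjusted p = 0.0293). Both lay below every control. Sox11, at 47.1, 40.3 and 37.9 against 31.5, also lay below every control, but its log2 fold change of −0.39 (SE 0.14, adjusted p = 0.105) did not pass in limma. On reads recovered from the TPM the log2 fold change of Sox11 was −0.411 in edgeR and −0.407 in DESeq2.

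Sox2 was at 251, 242 and 226 TPM in the controls and 245 in the knockdown library, a log2 fold change of 0.03 (SE 0.09, adjusted p = 0.777) and inside the control range. Sox9 (0.19, adjusted p = 0.326) and Sox5 (−0.07, adjusted p = 0.482) did not pass either. Within groups the members moved differently: Sox1 passed and Sox2 did not, and Sox4 and Sox11 had opposite signs. The differences between genes were not tested.

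**Figure D4:**
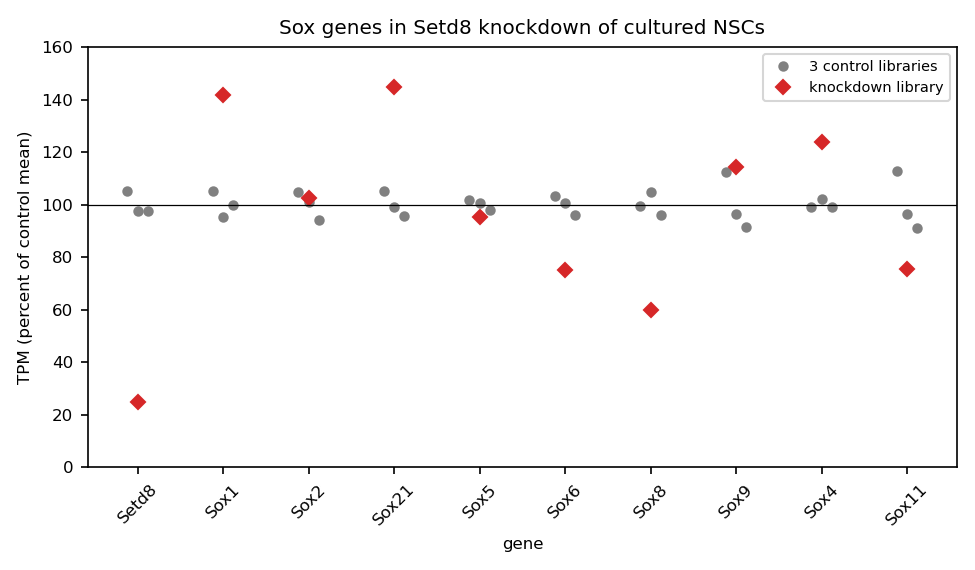
TPM of Setd8 and of the 9 tested Sox genes in the knockdown library (red diamond) and in the 3 control libraries (grey points), each as a percentage of the control mean. Sox1, Sox21 and Sox4 lie above all controls at 142, 145 and 124%, and Sox8, Sox6 and Sox11 below them at 59.9, 75.0 and 75.5%, while Sox2 lies among the controls.

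Other genes around the family were read from the same fit. Of the 9 further Sox genes 4 were tested and 1 passed: Sox13, a D group member, rose from 13.5, 14.4 and 14.4 TPM to 27.4 (log2 0.91, adjusted p = 0.00781). Sox3, the remaining B1 gene, was at 425, 398 and 423 against 462 TPM (0.16, adjusted p = 0.190), the highest level of any Sox gene here. The background of 16.1% and 16.3% holds for the following counts too. Of 11 tested progenitor genes tied to the B1 group 4 fell and none rose, led by Hes5, a Notch effector (28.1, 28.2 and 24.0 against 12.6 TPM), and Pax6, a progenitor factor (24.0, 24.4 and 22.4 against 14.4). Of 8 tested glial and oligodendroglial genes tied to the E group 1 rose, Cnp (81.3, 85.1 and 86.4 against 114 TPM). Of 7 tested genes tied to the C group 3 fell, the neuronal genes Stmn1 and Map2 and the Hippo pathway factor Tead2, and Tubb3 rose (0.987, 1.28 and 1.49 against 4.34 TPM).

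The calls among the members depended on the controls, while the fold changes moved little. Without any 1 control the log2 fold change lay between 0.46 and 0.53 for Sox1, 0.50 and 0.57 for Sox21, 0.30 and 0.32 for Sox4, −0.40 and −0.35 for Sox6, and −0.76 and −0.70 for Sox8. With 1 control left out, 3 members passed without Ctrl_3 (Sox1, Sox21 and Sox8), and Sox8 alone passed without Setd8KD_1 (adjusted p = 0.0468) or without Setd8KD_2 (adjusted p = 0.0430). With the libraries grouped by their labels none passed in limma (0 members and 168 of all genes at an unadjusted p under 0.05), and none did when no filter on low values was used (5 members at an unadjusted p under 0.05, with adjusted p from 0.0506 to 0.0906). On the recovered reads Sox1, Sox21, Sox4, Sox6 and Sox8 kept the signs of their fold changes in edgeR and in DESeq2. Sox8 was at −0.746 and −0.742 on the log2 scale there, and Sox11 at −0.411 and −0.407.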

How the data were processed

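Libraries were from Nestin-EGFP+ dentate cells (scRNA-seq and scATAC-seq, 1 each at P5, 12W and 24W) and from cultured NSCs (bulk RNA-seq). The authors counted UMIs per gene with Cell Ranger 2.2.0 on mm10 and deposited the raw counts. They deposited the scATAC-seq data as counts per peak, with peaks called per library. For bulk RNA, reads were trimmed with Trimmomatic and aligned with STAR, and the authors deposited TPM, with gene symbols and lengths in files of their own. RSEM is listed among the study's software with no stated use, and the annotation is not given in the sources used here. The bulk H4K20me1 and ATAC samples were not analysed here.

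Barcodes under 1000 UMIs or 500 genes, or above 10% mitochondrial counts, were dropped, and 932, 80 and 3 doublets were removed with scrublet. Seurat 5.3.0 clustered the cells without the Sox genes (2000 variable genes, 30 components, resolution 0.8). A cluster was named after the best-scoring class with at least 3 raised markers. Haemoglobin genes gave no class, and cycling clusters of other lineages were kept out of NPC. Clustering and naming were run in 3 versions before any Sox value by class was seen, and the version used was chosen after seeing cluster names. The other versions are alternatives. The haemoglobin-led AS cluster, the shallow IMN2 cluster and unnamed clusters were kept by number. Cell classes of the scATAC-seq cells (3000 to 100000 counts) came from label transfer. The members and gene lists were chosen with earlier results of these data known.

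UMIs were pooled per class and age, with exact Poisson intervals for levels and exact conditional binomial intervals for ratios. Genes with at least 20 UMIs over the 3 ages entered the rule of size, and a fall also needed 20 UMIs at P5. Genes most like a member were the 3 with the highest Pearson r of log2(level + 10) among genes with at least 200 UMIs. All 10 members are named, and in each list those that passed, or those with the largest change. TPM values were tested as log2(TPM + 1) with limma 3.58.1 on genes with at least 1 TPM in 1 library, with Benjamini-Hochberg adjustment over all genes tested. A fold change on this scale understates that of low genes. Reads were recovered from TPM and lengths (100% of low values were whole within 0.05, 20040076 to 21493347 reads per library) and tested with edgeR 4.0.16 and DESeq2 1.42.0 as alternatives. Scripts were tested on simulated counts. A gene and an overlapping gene on the same strand (Sox1 and Sox2 lie within longer noncoding transcripts) cannot be told apart in the counts.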

Additional observations from a re-analysis of the deposited data

Results flagged for a closer look

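Sox4 and Sox11 were lower with age in NSC-like and AS-like cells and not lower in the neurogenic progeny. This difference between classes was not tested, because each age had 1 library. The Sox4 level relative to P5 was 0.391 at 12W and 0.303 at 24W in NSC-like cells, with AS-like values of 0.355 and 0.257. NPC-like cells gave 1.42 and 1.38, and IMN1-like cells 1.28 and 1.22. For Sox11 the ratios were 0.382 and 0.0735 in NSC-like cells and 0.291 and 0.132 in AS-like cells, against 1.31 and 1.17 in IMN1-like cells. Values above 1 stayed under the 2-fold of the rule. The median ratios over all genes compared were 1.101 and 1.102 in NPC-like and 1.128 and 1.102 in IMN1-like cells. Sox11 in NPC-like cells at 24W and Sox4 in IMN2-like cells lay near their P5 levels. The ratios of PC-like cells were 0.353 and 0.246 for Sox4 and 0.440 and 0.196 for Sox11.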

How the results depend on the processing

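The Sox4 and Sox11 ratios in NSC-like and AS-like cells stayed below 0.5 under every scaling, filter, thinning and clustering tried for the whole class. Subtraction of the PC-like level, chosen after seeing the data, took Sox4 above it, and in the smaller cluster of each class taken alone Sox11 was at 0.565 (NSC-like, 12W) and Sox4 at 0.526 (AS-like, 24W, on 3 UMIs). That subtraction, of the whole class or of cluster 2 alone, left 1 of 10 members past the rule among NSC-like cells (Sox11), 0 among NPC-like and 1 among IMN2-like cells. A fold of at least 1.5 gave 5 members for NSC-like, 2 for NPC-like and 4 for IMN1-like cells. Thinning to 1000 UMIs gave 0 in IMN1-like and 1 in IMN2-like cells, and turned the Sox8 ratio of 24W to P5 in IMN2-like cells to 1.29. Low genes can lose a call there through the minimum of 20 UMIs at P5 alone. A second round of clustering, also chosen after seeing the data, gave 2 in NPC-like cells. The share of all genes past the rule was found only for the main setting with its 2-fold. The counts of members in these alternatives therefore stand without a background, and a lower fold lets more genes of any kind pass. Over all alternatives, 107 single RNA ratios moved and 304 did not. Of the promoter ratios 72 moved and 328 did not, 42 of those that moved per covered base, chosen after seeing the data, and 28 under a label score of at least 0.7. Of the ratios over whole genes 37 moved and 63 did not. The cause was not tested.

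In the knockdown, 0 members passed with no filter on low values and 0 with grouping by the labels, under which Sox2 was at −0.0808 and Sox9 at −0.16 on the log2 scale. Without 1 control in turn, 1 to 3 members passed, and the Sox2 change lay between −0.00725 and 0.0695. Over all genes 4283 were called, against 1935 with no filter, 3244, 1245 and 1968 without 1 control, and 0 by the labels. No paired analysis was possible because only 1 library held knockdown values. With 1 library per age, 4 to 37 UMIs behind the 24W values of Sox11 and Sox4 in NSC-like cells limit their precision.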

Other observations

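Oligodendroglial and ependymal cells were too few at 12W or 24W for the comparison across ages, and their values are given here. In OPC-like cells Sox10 was at 277 CPM at P5 (1911 cells) and 592 at 12W (33 cells), and Sox8 at 260.3 and 471. Sox9 was at 182 in OPC-like cells at P5 and had 0 UMIs at 12W, which leaves an upper limit of 40.4 CPM. In OL-like cells Sox10 was at 420.1, 557.5 and 439.8 at the 3 ages and Sox8 at 357.5, 471.4 and 432.7. In ependymal-like cells Sox9 was at 529, 718 and 571 and Sox2 at 401, 420.1 and 282.

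In PC-like cells Sox5 was not lower with age, unlike the other members. It was at 24.2, 34.4 and 27.0 CPM at P5, 12W and 24W. Its ratios were 1.419 (0.957 to 2.167) and 1.115 (0.734 to 1.736), with 1 inside both intervals, where the ratios of the other 9 members were all below 0.45. In vascular smooth muscle-like cells Sox5 was at 36.1, 45.5 and 51.2 and Sox6 at 24.6, 20.02 and 21.3, while Sox4 was at 349.6, 107 and 82.5. The 70 interneuron-like cells at 12W, marked by Gad1, Gad2 and Dlx genes, held 3523 of Sox4 and 2811 of Sox11, and Sox4 and Sox11 made up 94.2% of their member UMIs. Sp9, Sp8 and Meis2 were also among the top genes of their cluster, and how mature these cells were was not tested.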
